A study of Mus musculus with 12 samples.

Results

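The transcripts of 8 genes that mark red cells and neutrophils were followed in whole spinal cord of mice carrying the C201R change in Gars, the gene of glycyl-tRNA synthetase, and of wild-type (WT) mice. The members were taken by gene name from the 38924 genes of each deposited table. They are Hba-a1, Hba-a2, Hbb-bs, Hbb-bt, Alas2, Slc4a1, S100a8 and S100a9, and each was found once in all 12 libraries. The C201R libraries came from mice tagged C201R+/- and the WT libraries from mice tagged C201R+/+, read with the titles as heterozygous and wild type. All mice were 8 weeks old on the B6J.Cg background, and each library held polyadenylated RNA of spinal cord. The titles give 6 C201R libraries (numbers 1, 2, 3, 10, 11 and 12) and 6 WT libraries (numbers 4 to 9), with 3 of each titled sex per genotype. The library names give another split, with numbers 1, 2, 3, 4, 9 and 10 as C201R and 5, 6, 7, 8, 11 and 12 as WT. Titles and names therefore disagree for 4 libraries and agree for 8. Both splits were compared, as was the set of 8, and no library was regrouped on its values. Neither the meaning of the library number nor any rinsing of blood from the tissue is given in the sources used here.

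Hba-a1 and Hba-a2 encode the adult alpha chain of haemoglobin, and Hbb-bs and Hbb-bt the adult beta chain. Young red cells still hold these messages after the nucleus is lost, so blood in a tissue brings them along. Alas2 is the erythroid form of the first enzyme of haem synthesis, and Slc4a1 encodes band 3, the anion exchanger of the red cell membrane. S100a8 and S100a9 encode the subunits of calprotectin, a calcium-binding protein stored in large amounts by neutrophils. In bulk tissue, fewer cells of a type and less RNA per cell cannot be told apart.

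The summed expected counts per library ran from 27175421 to 38271405, and 22057 to 22579 genes had a count above 0. Titled sex went against Xist, the RNA of the inactive X chromosome, in 6 libraries (numbers 2, 3, 4, 5, 6 and 8). Summed skeletal muscle transcripts were highest in libraries 1, 3, 6 and 8 (2022 to 3909 TPM, against 149 to 1114 TPM in the other 8). Summed fat transcripts reached 955 TPM in library 3 and 6.06 to 116 TPM in the others. The tissue label was met by its markers: the 13 genes of a spinal cord list summed to between 23349 and 29880 TPM. TPM is a level scaled for transcript length and library total and is used below for levels, while tests were run on expected counts.

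The sequences of the paired globin genes bear on how far their counts can be kept apart. Hba-a1 (ENSMUSG00000069919) lies at chr11:32283511-32284465 and Hba-a2 (ENSMUSG00000069917) at chr11:32296489-32297298, both on the plus strand of GRCm38 in GENCODE M21. Their coding sequences of 429 bases differ at 1 base, C381T from Hba-a1 to Hba-a2, counted from the A of the start codon. Positions 351 to 408 are shown, with the differing base in capitals.
Hba-a1: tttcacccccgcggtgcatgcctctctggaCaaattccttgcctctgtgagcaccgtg
Hba-a2: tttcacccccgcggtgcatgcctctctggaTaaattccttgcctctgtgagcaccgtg
Hbb-bs (ENSMUSG00000052305, chr7:103826534-103828096) and Hbb-bt (ENSMUSG00000073940, chr7:103812524-103813996) lie on the minus strand. Their coding sequences of 444 bases also differ at 1 base, C417T from Hbb-bs to Hbb-bt. Positions 387 to 444 are shown in the same way.
Hbb-bs: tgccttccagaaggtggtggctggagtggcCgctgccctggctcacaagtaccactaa
Hbb-bt: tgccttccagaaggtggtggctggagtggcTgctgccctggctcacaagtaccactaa
Of all stretches of 75 bases, the read length, 62.2% of the longest coding transcript of Hba-a1 were also in that of Hba-a2, and 64.3% of Hbb-bs were also in Hbb-bt. In the other direction, 81.0% of Hba-a2 were in Hba-a1 and 56.6% of Hbb-bt in Hbb-bs. Reads from these stretches were divided by the authors' RSEM run, so the split between the paralogs is less certain than their sum. The transcripts of S100a8 and S100a9 shared no stretch of that length.

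Promoters were looked up because the red cell members varied together across libraries, as described below. The RefSeq table for GRCm38.p6 held a promoter for 7 of the 8 members. The 250 bases before the start are shown for 3 red cell genes, with capitals on the GATA letters (AGATAA, also with T as the first letter, G as the last, or both) and the CACCC letters (CCACACCC or CCACCC) on either strand. The windows are chr11:32283422-32283671 on the plus strand for Hba-a1, chr7:103827929-103828178 on the minus strand for Hbb-bs and chrX:150547167-150547416 on the plus strand for Alas2.
Hba-a1: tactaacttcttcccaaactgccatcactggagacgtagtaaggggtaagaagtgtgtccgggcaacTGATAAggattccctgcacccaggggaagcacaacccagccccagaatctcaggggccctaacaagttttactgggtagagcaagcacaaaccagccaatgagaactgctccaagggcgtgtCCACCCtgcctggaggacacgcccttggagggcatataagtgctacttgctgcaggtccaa
Hbb-bs: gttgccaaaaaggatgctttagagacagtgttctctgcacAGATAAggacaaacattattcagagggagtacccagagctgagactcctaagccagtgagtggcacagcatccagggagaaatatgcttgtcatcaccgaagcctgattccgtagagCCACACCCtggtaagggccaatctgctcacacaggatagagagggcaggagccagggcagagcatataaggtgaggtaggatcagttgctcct
Alas2: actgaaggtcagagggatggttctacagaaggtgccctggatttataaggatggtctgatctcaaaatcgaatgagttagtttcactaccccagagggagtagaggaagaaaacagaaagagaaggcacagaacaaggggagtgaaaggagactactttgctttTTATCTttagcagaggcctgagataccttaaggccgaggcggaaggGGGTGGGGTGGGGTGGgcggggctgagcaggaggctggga
For the 2 neutrophil genes, capitals mark the letters TTGCNNAA, read also as TTNNGCAA on the other strand, and AGGAAG on either strand. The windows are chr3:90668821-90669070 on the plus strand for S100a8 and chr3:90695722-90695971 on the minus strand for S100a9.
S100a8: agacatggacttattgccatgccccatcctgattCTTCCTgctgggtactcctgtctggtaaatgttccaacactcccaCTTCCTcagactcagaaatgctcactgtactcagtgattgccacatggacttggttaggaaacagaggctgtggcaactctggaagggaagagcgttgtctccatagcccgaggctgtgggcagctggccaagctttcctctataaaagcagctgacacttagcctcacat
S100a9: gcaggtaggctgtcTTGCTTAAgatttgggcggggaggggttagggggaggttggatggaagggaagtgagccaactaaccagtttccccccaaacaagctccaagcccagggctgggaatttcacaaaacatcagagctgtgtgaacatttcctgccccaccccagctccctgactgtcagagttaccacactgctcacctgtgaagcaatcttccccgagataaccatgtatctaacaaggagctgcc
The GATA letters were in the promoters of 5 of the 7 members (Hba-a1, Hba-a2, Hbb-bs, Alas2 and S100a9) and in 26.5% of 32841 promoters of the same length. The CACCC letters were in 6 of 7, the exception being S100a8, and in 30.1% of all promoters. CCAAT was in the promoters of the 4 globin genes and of no other member, against 33.9% of all promoters. The letters TTGCNNAA were in 2 of 7 (Hbb-bs and S100a9) and in 9.57% of all, and AGGAAG in 2 of 7 (Alas2 and S100a8) and in 29.5% of all. A match is only the presence of these letters.

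The 8 members differed widely in level. Over the 12 libraries the median was 1269 TPM for Hbb-bs, 1233 TPM for Hba-a2, 769 TPM for Hba-a1 and 312 TPM for Hbb-bt. It was 94.7 TPM for S100a8, 85.7 TPM for S100a9, 15.3 TPM for Alas2 and 2.4 TPM for Slc4a1. The ranges over libraries of neighbours in this order overlapped for every pair. Within each library, Hba-a2 was above Hba-a1 and Hbb-bs above Hbb-bt, while the ratio of S100a9 to S100a8 stayed between 0.838 and 1.04. The 4 globin genes together made up between 0.151% (library 8) and 1% (library 2) of all TPM. Behind these levels stood between 5027 and 40513 counts per library for Hbb-bs, and between 50 and 552 counts for Slc4a1, the member of lowest depth.

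In order of library number, from 1 to 12, Hbb-bs was 1837, 3672, 1124, 1649, 1516, 1415, 1415, 542, 886, 705, 997 and 522 TPM. It was highest in library 2 and lowest in libraries 12 and 8, and every library from 8 on was below every library up to 7. Hba-a1 was 1294, 2247, 672, 1159, 1051, 968, 865, 388, 634, 388, 631 and 334 TPM, with the same libraries at the top and the bottom. Hba-a2 was 1487, 3214, 1485, 1440, 1245, 1222, 1200, 445, 753, 944, 1357 and 649 TPM, and differed from Hba-a1 in that libraries 3 and 11 ranked with the higher ones. Hbb-bt was 498, 913, 290, 396, 365, 365, 335, 133, 229, 171, 261 and 125 TPM and followed Hbb-bs, with a ratio of Hbb-bs to Hbb-bt between 3.69 and 4.23. From the lowest to the highest library, the 4 globin genes varied 6.74-fold to 7.31-fold.

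Alas2 (ENSMUSG00000025270, chrX:150547375-150570638, plus strand) was 24.9, 50, 15.1, 22.7, 17, 19.6, 15.6, 6.81, 10, 8.79, 14.9 and 7.33 TPM in libraries 1 to 12. It followed the globin genes, and the ratio of Hbb-bs to Alas2 stayed between 66.8 and 90.9. Slc4a1 (ENSMUSG00000006574, chr11:102348824-102366203, minus strand) was 7.55, 5.63, 3.76, 2.73, 1.16, 2.92, 1.78, 0.79, 2.07, 1.36, 3.54 and 0.98 TPM. Its highest value was in library 1, not 2, and the ratio of Alas2 to Slc4a1 ranged from 3.3 in library 1 to 14.7 in library 5.

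S100a8 (ENSMUSG00000056054, chr3:90668978-90670035, plus strand) was 175, 122, 110, 75.2, 32.6, 197, 126, 24.6, 79.1, 68.4, 125 and 21.4 TPM in libraries 1 to 12. S100a9 (ENSMUSG00000056071, chr3:90692632-90695721, minus strand) was 162, 104, 97.6, 65.9, 31.8, 168, 106, 22.2, 73.8, 60.1, 116 and 22.2 TPM. Both were highest in library 6 and low in libraries 5, 8 and 12. Library 5 had the fourth highest Hbb-bs and the tenth S100a8, and the ratio of summed globins to summed S100a8 and S100a9 ran from 10.9 in library 6 to 64.9 in library 5.

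**Figure D1:**
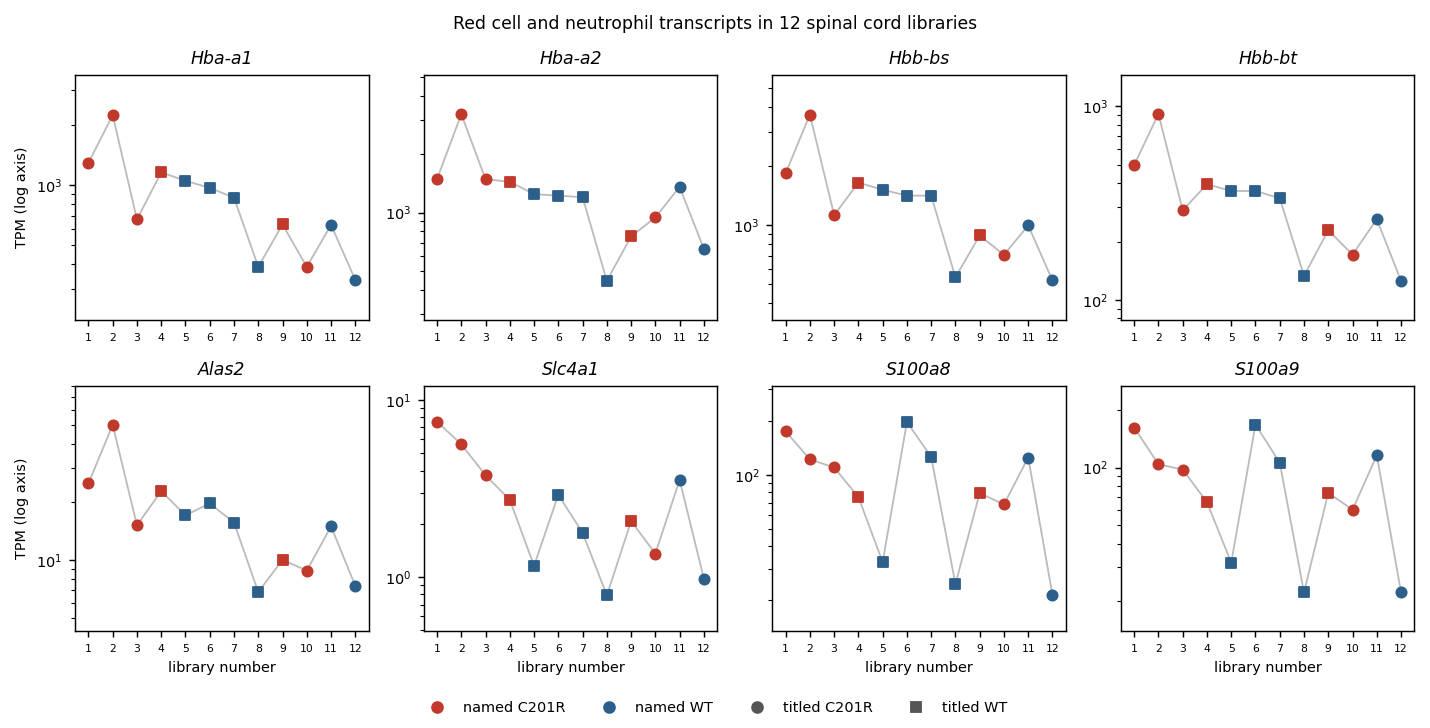
TPM (log axis) of each of the 8 members against library number. Red marks libraries named C201R and blue those named WT, circles mark titled C201R and squares titled WT, and the globin genes and Alas2 peak in library 2 while S100a8 and S100a9 peak in library 6.

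The slope of each member on library number was tested with library-name genotype and titled sex in the model, by edgeR's quasi-likelihood test with Benjamini-Hochberg adjustment over 17765 genes and a threshold of 0.05. In all, 4 of 8 members fell with the number: Hba-a1, Hbb-bs, Hbb-bt and Alas2. Of all genes tested, 6.38% passed. Hba-a1 fell by 0.21 ± 0.04 on the log2 scale per library (SE, n = 12; edgeR adjusted p = 0.0239). The slopes of Hbb-bs and Hbb-bt were -0.20 ± 0.05 each (edgeR adjusted p = 0.0291 and 0.0287), and that of Alas2 was -0.21 ± 0.05 (edgeR adjusted p = 0.038). The slopes of Hba-a2 (-0.13 ± 0.05, edgeR adjusted p = 0.126), Slc4a1 (-0.14 ± 0.06, 0.219), S100a8 (-0.12 ± 0.08, 0.406) and S100a9 (-0.11 ± 0.08, 0.434) did not pass. The difference in slope between members was not tested. Hba-a1 and Hba-a2 share reads, and their count ratio was lower in libraries 3, 10, 11 and 12, as described below, so their separate slopes are less certain. With the paralogs summed, the alpha pair passed.

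The calls on library number depended on single libraries and on the sex term. No member passed without library 2 (smallest edgeR adjusted p = 0.0547), 5 (0.0537), 9 (0.0697), 10 (0.0786) or 12 (0.0584), and 1, Hba-a1, passed without library 1 or without library 7. None passed with no term for titled sex (smallest edgeR adjusted p = 0.0521), or without the 6 libraries whose Xist level went against the titled sex (0.0617). All 8 slopes were negative in each of these fits. The fit without those 6 libraries left 6 libraries for 4 coefficients and could call few genes. Its lost calls therefore cannot show a dependence on the sex labels. All 8 members had an unadjusted p under 0.05 by edgeR in that fit, against 5 in the main fit. The count over all genes moved as well: against 1134 genes in all 12 libraries, 68 passed with no sex term and 1 without those 6 libraries. It was 240, 255, 510, 384, 558, 60, 241, 564 and 581 without library 1, 2, 3, 5, 7, 9, 10, 11 or 12, and 991, 1684 and 970 without library 4, 6 or 8. All 12 muscle genes and all 7 tested fat genes also had negative slopes, of which none passed. Without the 4 libraries of highest muscle transcripts the same 4 members passed (smallest edgeR adjusted p = 0.0171).

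**Figure D2:**
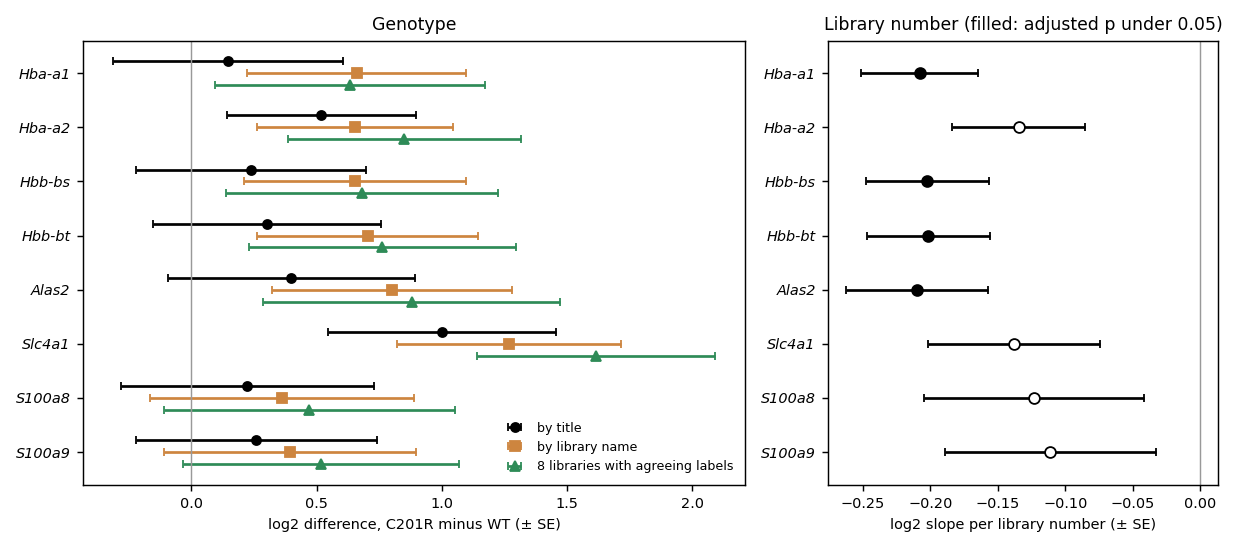
Left, log2 difference of C201R minus WT with its SE for each member, by title, by library name and in the 8 libraries whose labels agree. Right, log2 slope per library number with its SE, filled where the edgeR adjusted p was under 0.05 (Hba-a1, Hbb-bs, Hbb-bt and Alas2); every slope lies below 0 and every genotype difference above 0.

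By title, none of the 8 members differed between C201R and WT by the same edgeR test, with titled sex in the model, and 0% of the 17765 genes tested passed. At an unadjusted p under 0.05 there were 1202 genes, 6.77% of those tested, among them 1 member, Slc4a1. DESeq2 called 18 genes and no member. Hbb-bs had a lowest, median and highest value of 522, 1061 and 3672 TPM in C201R libraries, against 542, 1415 and 1649 TPM in WT libraries. Its mean was 1476 ± 1167 TPM in C201R and 1237 ± 428 TPM in WT (SD over 6 libraries each), which is 0.24 ± 0.46 on the log2 scale (SE; adjusted p = 0.96 by edgeR). The groups overlapped, and 2 of 6 C201R libraries, numbers 1 and 2, lay above the WT median. Slc4a1 had a lowest, median and highest value of 0.98, 3.65 and 7.55 TPM in C201R libraries, against 0.79, 1.92 and 2.92 TPM in WT libraries. Its mean was 3.8 ± 2.51 TPM in C201R and 1.91 ± 0.843 TPM in WT, and 4 of 6 C201R libraries lay above the highest WT library. On the log2 scale this was 1.00 ± 0.46, short of the threshold (edgeR adjusted p = 0.733).

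The remaining members also overlapped by title, with 3 of 6 C201R libraries above the highest WT library for Hba-a2, 2 for Hba-a1, Hbb-bt and Alas2, and none for S100a8 and S100a9. Hba-a1 averaged 928 ± 731 TPM in C201R and 844 ± 287 TPM in WT, and Hba-a2 1523 ± 893 TPM in C201R and 1051 ± 373 TPM in WT. Hbb-bt averaged 376 ± 293 TPM in C201R and 304 ± 102 TPM in WT, and Alas2 20.2 ± 15.9 TPM in C201R and 15.3 ± 5.95 TPM in WT. S100a8 averaged 104 ± 52.9 TPM in C201R and 89.1 ± 64.3 TPM in WT, and S100a9 93.5 ± 47.9 TPM in C201R and 78 ± 53.6 TPM in WT (SD, n = 6 each). Their log2 differences lay between 0.15 and 0.52 (edgeR adjusted p 0.855 to 0.984). The ratio of Hba-a1 to Hba-a2 counts was lower in libraries 3, 10, 11 and 12, all titled C201R, as described below. The separate differences of these 2 genes are therefore less certain than that of their sum. Summed, the pair had a log2 difference of 0.34 ± 0.41 (edgeR adjusted p = 0.920). The signs of 4 members rested on library 2: without it Hba-a1, Hbb-bs, Hbb-bt and Alas2 had log2 differences of -0.41, -0.30, -0.23 and -0.21. Without the 6 libraries whose Xist level went against the titled sex, all 8 members had negative differences, from -1.002 for Hba-a1 to -0.11 for Hba-a2. Every titled female left in that fit was C201R. With titled sex in the model, the contrast therefore rested on library 10 alone against libraries 7 and 9, and these signs cannot stand for the genotype. The C201R libraries also spread more widely than the WT libraries for all 6 red cell members, a difference that was not tested.

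By library name, again 0 of 8 members passed, against 0.715% of all genes (127 of 17765; 2273 genes, and 1 member, at an unadjusted p under 0.05; DESeq2 also called no member). The globin genes lay further apart than by title without passing. Hbb-bs had a lowest, median and highest value of 705, 1386 and 3672 TPM in C201R libraries, against 522, 1206 and 1516 TPM in WT libraries. Its mean was 1645 ± 1084 TPM in C201R and 1068 ± 452 TPM in WT, or 0.65 ± 0.44 on the log2 scale (edgeR adjusted p = 0.594). Of the C201R libraries, 3 of 6 lay above the highest WT library: numbers 1, 2 and 4. Slc4a1 averaged 3.85 ± 2.34 TPM in C201R and 1.86 ± 1.13 TPM in WT, with a log2 difference of 1.27 ± 0.45 (edgeR adjusted p = 0.255). Alas2 averaged 21.9 ± 15.2 TPM in C201R and 13.5 ± 5.28 TPM in WT (0.80 ± 0.48, edgeR adjusted p = 0.532). S100a8 averaged 105 ± 40.4 TPM in C201R and 87.9 ± 72.5 TPM in WT (0.36 ± 0.53, edgeR adjusted p = 0.84), and here no C201R library lay above the highest WT library, number 6.

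Genotype by library name was uneven along the library number: the mean number was 4.83 for C201R and 8.17 for WT, while by title it was 6.5 for both. With the number as a linear term, the library-name differences of Hba-a1, Hbb-bs, Hbb-bt and Alas2 were -0.16, -0.15, -0.12 and -0.08 on the log2 scale, and those of S100a8 and S100a9 -0.13 and -0.05. Those of Slc4a1 and Hba-a2 stayed positive at 0.60 ± 0.50 and 0.08 ± 0.38 (SE), and none of the 8 passed. Genotype by name and library order can therefore be told apart only as far as these 12 libraries cross them.

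In the 8 libraries whose labels agree, 0 of 8 members passed, against 0.158% of all genes (29 of 18384; 2337 genes, and 1 member, at an unadjusted p under 0.05; DESeq2 also called no member). Slc4a1 was 7.55, 5.63, 3.76 and 1.36 TPM in C201R libraries 1, 2, 3 and 10, against 1.16, 2.92, 1.78 and 0.79 TPM in WT libraries 5, 6, 7 and 8. The first 3 C201R libraries lay above every WT library and library 10 did not. The log2 difference was 1.62 ± 0.48 (SE, n = 4 each; edgeR adjusted p = 0.219). Alas2 was 24.9, 50, 15.1 and 8.79 TPM in C201R libraries, against 17, 19.6, 15.6 and 6.81 TPM in WT libraries, with a log2 difference of 0.88 ± 0.59 (edgeR adjusted p = 0.593). The globin genes had log2 differences between 0.63 and 0.85, and S100a8 and S100a9 0.47 and 0.52, with edgeR adjusted p between 0.495 and 0.806. Here too the library number was uneven, with a mean of 4 for C201R and 6.5 for WT. With the number as a term, Hba-a1, Hbb-bs, Hbb-bt and Alas2 turned negative (-0.39, -0.25, -0.20 and -0.15), Slc4a1 was 0.67 ± 0.42 (SE), and Hba-a2, S100a8 and S100a9 were 0.20, 0.09 and 0.15, none passing. Without that term, the median over the 8 members was 0.72, against 0.0055 over all genes tested. By title it was 0.28, against 0.0012 over all genes, and by library name 0.66, against 0.0023. These 3 comparisons share libraries, and the signs of the members are not independent of each other.

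**Figure D3:**
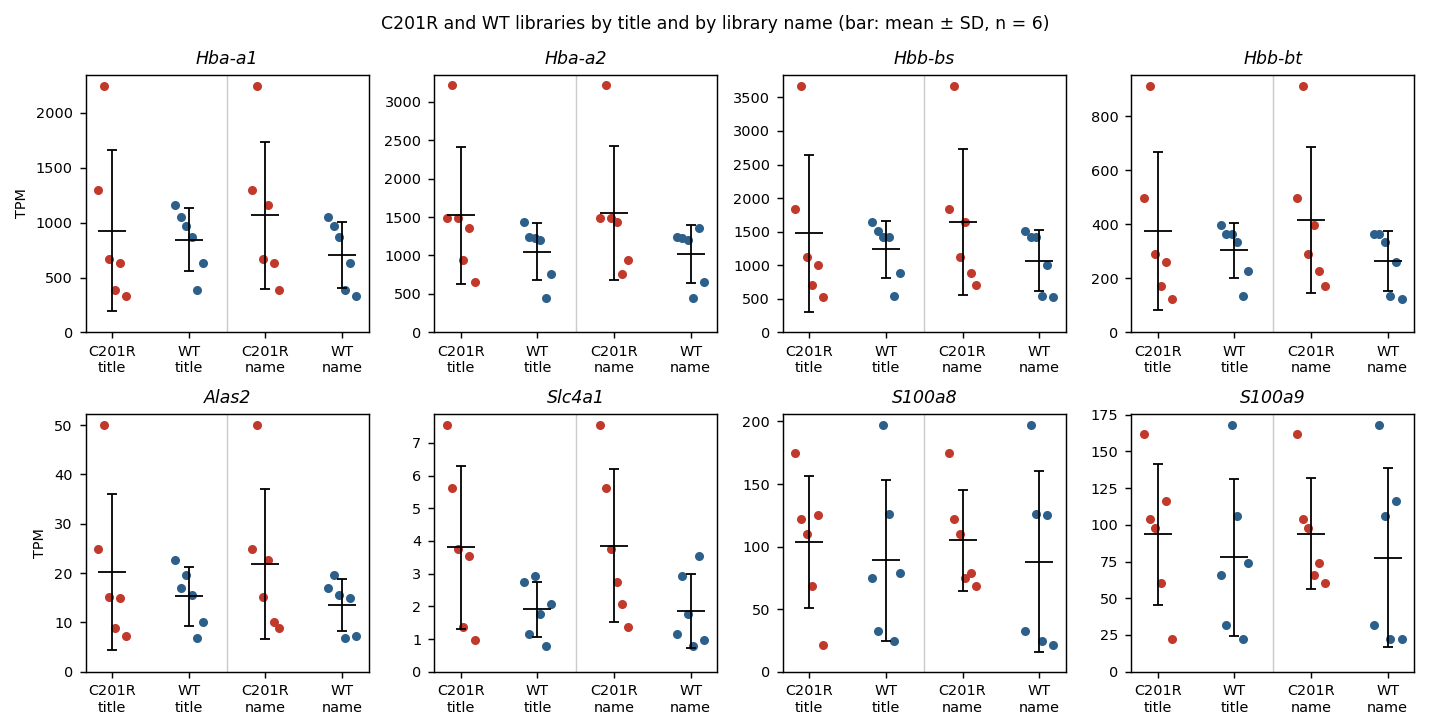
TPM of each member in the C201R and WT libraries, by title (left pair) and by library name (right pair); points are libraries and bars the mean and SD of 6. Groups overlap in every panel, and library 2 is the top C201R point for the globin genes and Alas2 (for Hbb-bs 3672 TPM).

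The members fell into blocks by how they varied across the 12 libraries. Pearson's r of log2 CPM (counts as a share of the TMM-scaled library total) ran from 0.866 to 0.997 among the 4 globin genes, and from 0.948 to 0.986 between them and Alas2. S100a8 and S100a9 were correlated at 0.998. Slc4a1 was correlated at 0.721 to 0.797 with the globin genes and Alas2, and at 0.839 to 0.851 with S100a8 and S100a9. Between the globin genes or Alas2 and the S100 genes r was lowest, 0.577 to 0.652, and Spearman's rho ran from 0.49 to 0.671. Of the 28 pairs, 27 passed by Pearson's r in a two-sided permutation test with 100000 resamples, after Benjamini-Hochberg adjustment over the pairs. Adjusted p in this test ran from 3.5e-05 to 0.0505, and for Spearman's rho from 4e-05 to 0.11. By rho, the only pair of a globin gene or Alas2 with an S100 gene that passed was Alas2 with S100a8 (permutation test, adjusted p = 0.034). The other pairs of that block lay between 0.0527 and 0.11, and all pairs outside it passed. The smallest unadjusted p, 1e-05, is the smallest these resamples can give. Without the 2 libraries farthest from the median of the first gene, r was 0.726 to 0.994 within the globin genes, 0.77 and 0.773 between Slc4a1 and the S100 genes, 0.565 to 0.685 between Slc4a1 and the globin genes or Alas2, and 0.429 to 0.605 between globins or Alas2 and S100 genes. Then 13 of 28 pairs passed: those among the globin genes and Alas2, S100a8 with S100a9, and both pairs of Slc4a1 with an S100 gene (adjusted p of 0.0182 in the permutation test). The relations of the globin genes and Alas2 with Slc4a1 and with the S100 genes no longer passed (number 2 left out with 8 or 12, by pair). With fewer libraries and a narrower range, a lost call cannot show whether these relations rest on the libraries left out. The pairs of Slc4a1 with an S100 gene left out numbers 1 and 8, so the blocks are not compared on the same libraries. The values of one library share its RNA and depth.

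**Figure D4:**
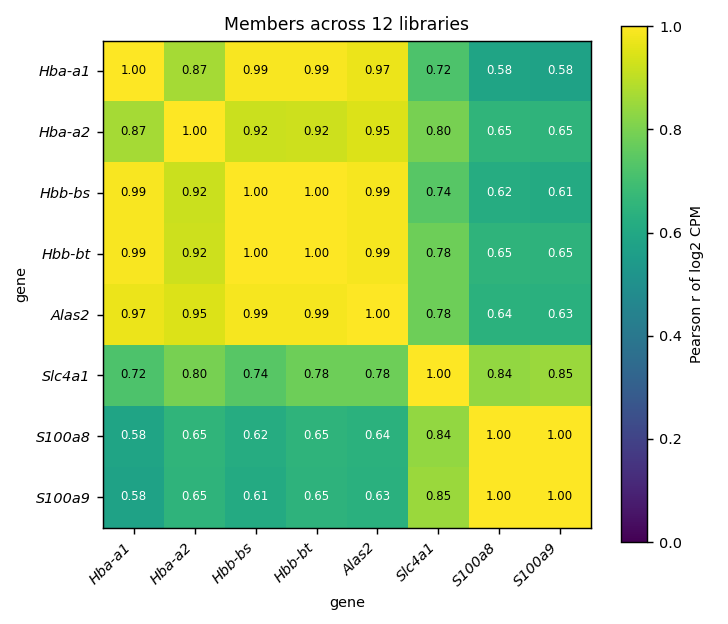
Pearson r of log2 CPM over 12 libraries for each pair of members, from 0 (dark) to 1 (light). The globin genes and Alas2 form 1 block, S100a8 and S100a9 another (r 0.998), and Slc4a1 has values of 0.721 to 0.851 with both.

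The genes most like each member, by Pearson's r of log2 CPM over 12 libraries among 17757 other genes, are given as a description. For Hbb-bs they were Fam46c (r 0.964), Slc25a37 (0.953), Ube2l6 (0.945), Isg20 (0.932) and Pabpc1 (0.923). Slc25a37 encodes mitoferrin 1, which carries iron into mitochondria for haem synthesis. Fam46c, Slc25a37, Ube2l6 and Isg20 were also among the 5 for Hba-a1, with Tifa, and for Hbb-bt, with Pabpc1. For Alas2 they were Fam46c, Pipox, Slc25a37, Pabpc1 and Gda, and for Hba-a2 Pabpc1, Gda, Pipox, B230369F24Rik and Slc16a4 (r 0.931 to 0.955). For Slc4a1 they included Trim10 (r 0.955), Ctse (0.953) and Mki67 (0.951), of which Mki67 encodes the proliferation marker Ki-67. For S100a8 and S100a9 they were Ltf, Camp, Ngp, Mmp8 and Chi3l3 (r 0.975 to 0.996), of which Ltf (lactoferrin), Camp (cathelicidin), Ngp and Mmp8 (neutrophil collagenase) are neutrophil granule proteins.

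Ltf was 8.6, 6.76, 6.29, 3.61, 1.61, 10.8, 6.52, 1.12, 4.39, 3.72, 7.14 and 1.13 TPM in libraries 1 to 12, high and low in the same libraries as S100a8. Of 16 tested genes in the neutrophil granule list, 12 had r above 0.7 with S100a8, against 1.6% of all other genes tested. Of 17 in the red cell membrane list, 10 had r above 0.7 with Slc4a1, against 2.91% of all, and 4 with Hbb-bs, against 1.93%. Of 11 haem synthesis genes beside Alas2, 1 (Slc25a37) had r above 0.7 with Hbb-bs. Of 9 tested B cell genes, 6 were above 0.7 with Slc4a1 and 1 with S100a8. The monocyte list had 5 of 7 above 0.7 with S100a8 and 6 of 7 with Slc4a1. Of 11 endothelial genes, Slco1a4, a transporter of the brain's vessels, was above 0.7 with Hbb-bs (r 0.834), and Cdh5 (VE-cadherin, 0.79) and Tie1 (0.742) with Slc4a1. Of 10 platelet genes, 1, 2 and 1 were above 0.7 with Hbb-bs, Slc4a1 and S100a8. None of 11 microglia, 12 skeletal muscle, 7 fat, 10 bone or 13 spinal cord genes was above 0.7 with Hbb-bs, Slc4a1 or S100a8. The microglia gene P2ry12 lay at the limit, with r of 0.7 to Hbb-bs.

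The wider lists were compared between the genotypes in the same fits. Over all genes tested, 50.7% had higher values in C201R by title, 50.9% by library name and 52.1% with agreeing labels. Genes of a list that vary together across libraries do not give independent signs. Of the 17 tested red cell membrane genes, 15 had higher and 2 lower values in C201R by title, with a median log2 difference of 0.06 and none passing. By library name 13 had higher and 4 lower values, with a median of 0.50 and none passing. In the 8 libraries with agreeing labels 14 of 18 had higher values, and the 1 that passed, Slc2a1, was lower. Of all genes tested in that fit, 0.158% passed. Slc2a1, the glucose transporter GLUT1 of the brain's vessels, averaged 94.7 ± 2.19 TPM in C201R and 112 ± 7.25 TPM in WT over 4 libraries each. Its log2 difference was -0.30 ± 0.04 (edgeR adjusted p = 0.026). By title it was -0.22 ± 0.05 (edgeR adjusted p = 0.542) and by library name -0.19 ± 0.06 (0.213), neither passing. Slc2a1 did not follow the red cell members over the 12 libraries, with r of -0.15 to Hbb-bs and -0.44 to Slc4a1. Of the 11 erythroid development genes, 9 had higher and 2 lower values in C201R by title and by library name, and none passed. Trim10, an erythroid tripartite motif gene, was 0.91 ± 0.551 TPM in C201R and 0.457 ± 0.212 TPM in WT by library name (1.199 ± 0.370, edgeR adjusted p = 0.183). Of the 11 haem synthesis genes, 4 were higher and 7 lower by title, and the 2 of lowest p by library name were Ppox (0.11 ± 0.04, edgeR adjusted p = 0.234) and Alad (0.07 ± 0.04, 0.489).

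Neutrophil genes showed no call by any genotype label. Of 16 tested granule genes, 10 had higher and 6 lower values in C201R by title, 13 and 3 by library name. By title the 2 of lowest p were Ltb4r1, a leukotriene B4 receptor, at 0.503 ± 0.139 TPM in C201R and 0.245 ± 0.127 TPM in WT (1.04 ± 0.35, edgeR adjusted p = 0.662), and Wfdc21 at 2.58 ± 1.32 TPM in C201R and 1.17 ± 0.678 TPM in WT (1.09 ± 0.45, edgeR adjusted p = 0.709). The 10 surface and signalling genes had 3 higher and 7 lower by title. Of the 6 genes for S100a8 and S100a9 receptors, 5 had higher values by title and none passed, with Cd33 of lowest p at 3.05 ± 0.445 TPM in C201R and 2.52 ± 0.362 TPM in WT (0.24 ± 0.12, edgeR adjusted p = 0.759). Of the S100 family beside the members, 8 were tested, 6 with higher values by title. S100b, the astrocyte and oligodendrocyte member, was 816 ± 51.2 TPM in C201R and 842 ± 33 TPM in WT (-0.08 ± 0.03, edgeR adjusted p = 0.677).

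Markers of other blood cells and of neighbouring tissues were compared in the same way. B cell genes had a median log2 difference of 0.63 by title and 0.68 by library name, none of 9 passing. Igkc, the kappa light chain constant region, was 5.98 ± 3.67 TPM in C201R and 2 ± 0.692 TPM in WT by title (1.57 ± 0.47, edgeR adjusted p = 0.64). Ighm, the mu heavy chain constant region, lay the other way by library name, at 59.5 ± 5.62 TPM in C201R and 69.6 ± 5.76 TPM in WT (-0.26 ± 0.08, edgeR adjusted p = 0.162), and in the 8 libraries with agreeing labels (-0.34 ± 0.08, 0.163). At 52.9 to 79.8 TPM it made up most of the B cell sum. That sum ran from 67.9 to 86.8 TPM in C201R and from 65.7 to 88.9 TPM in WT by title. Monocyte sums ran from 19.6 to 65.6 TPM in C201R and from 20.3 to 74 TPM in WT, and platelet sums from 14.1 to 23.8 TPM in C201R and from 16.1 to 21.8 TPM in WT. Endothelial sums ran from 270 to 331 TPM in C201R and from 258 to 313 TPM in WT, with 9 of 11 genes higher by title and none passing. Skeletal muscle sums ran from 149 to 3909 TPM in C201R and from 307 to 3281 TPM in WT, and fat sums from 6.06 to 955 TPM in C201R and from 6.72 to 116 TPM in WT. Each of these lists was detected in full. Their part in the members' values was not tested, beyond the fit without the 4 libraries of highest muscle transcripts. Clearance genes were tested for 10 of 11 members, 2 with higher and 8 with lower values by title and none passing. Fth1, the ferritin heavy chain, was 10444 ± 609 TPM in C201R and 11101 ± 522 TPM in WT (-0.12 ± 0.03, edgeR adjusted p = 0.579).

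With library number, against 6.38% of all genes, 3 of 11 haem synthesis genes (27.3%) fell: Fech (log2 slope of -0.0171 ± 0.0044 per library, edgeR adjusted p = 0.0424), Cpox (-0.0365 ± 0.0096, 0.0446) and Slc25a37 (-0.0244 ± 0.0065, 0.0481). Of 17 red cell membrane genes, 4 rose and 2 fell (35.3% in all). Those that fell included Epb42, which encodes the red cell membrane protein 4.2 (-0.23 ± 0.05, edgeR adjusted p = 0.0257). Those that rose included Add2, Sptb and Dmtn (slopes of 0.0214, 0.0175 and 0.0156, edgeR adjusted p 0.0233 to 0.0312), membrane skeleton genes at 53 to 81.9 TPM that neurons also express. Of 11 erythroid development genes, 2 (18.2%) fell: Tfrc, the transferrin receptor (-0.0464 ± 0.0064, edgeR adjusted p = 0.0119), and Bnip3l (-0.0221 ± 0.0056, 0.0391). With no term for titled sex, no haem synthesis or red cell membrane gene and 1 erythroid development gene passed. The same counts held without library 9 and without library 1. None of the 3 lists had a call without the 6 libraries whose Xist level went against the titled sex, where 1 of 18185 genes passed. Leaving out each library in turn gave 0 to 2 haem synthesis, 0 to 6 red cell membrane and 1 or 2 erythroid development genes. Of 11 endothelial genes 1, Slco1a4, fell (-0.0469 ± 0.0101, edgeR adjusted p = 0.0254). Of 11 microglia genes 1, P2ry12, fell (-0.0523 ± 0.0105, edgeR adjusted p = 0.0218), while 8 of the 11 had positive slopes. All 16 neutrophil granule, 9 B cell and 7 monocyte genes had negative slopes and none passed. Epb42 was 1.97 TPM in library 1 and 0.12 TPM in library 12.

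Among the other globin genes, the embryonic chains were near 0. Hbb-bh1 and Hbb-bh2 had no count in any library, which over the 382132036 summed counts allows a level of up to 0.00785 CPM (3 counts over the 12 libraries; counting error only). Hbb-y and Hba-x had 1 count each, in library 12. The theta globin genes Hbq1a and Hbq1b had 186 and 91 counts in all. By title Hbq1b was 1.52 ± 0.736 TPM in C201R and 0.485 ± 0.301 TPM in WT (1.36 ± 0.49, edgeR adjusted p = 0.671). Cygb, cytoglobin, was 63.8 ± 3.21 TPM in C201R and 59.9 ± 3.82 TPM in WT by title (0.06 ± 0.03, edgeR adjusted p = 0.766).

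Ratios within the globin genes separated libraries in a way their levels did not. The ratio of Hba-a1 to Hba-a2 counts was 1.17, 0.944, 0.61, 1.09, 1.14, 1.07, 0.971, 1.17, 1.13, 0.555, 0.626 and 0.696 in libraries 1 to 12. It lay between 0.555 and 0.696 in libraries 3, 10, 11 and 12 and between 0.944 and 1.17 in the other 8, with no library between. The 4 low libraries are titled C201R, as are libraries 1 and 2, which are among the higher 8. By library name, numbers 3 and 10 are C201R and numbers 11 and 12 are WT. Summed alpha over summed beta counts was 1.12 to 1.17 in these 4 libraries and 0.899 to 0.976 in the other 8. The ratio of Hbq1b to Hbq1a counts, with few counts behind it, was 1.25 to 2.41 in these 4 and 0 to 0.438 in the other 8. In the same 4 libraries Hbq1b had 8.78 to 17.6 expected counts and Hbq1a 5.22 to 12.4, against 0 to 8.23 and 13.3 to 28.6 in the other 8. Hbb-bs over Hbb-bt did not split this way (3.82 to 4.18 in the 4 libraries and 3.69 to 4.23 in the others). These ratios were chosen after their values were seen and are given without a test. Whether the libraries carry the same sequence at these genes was not tested, and the division of reads between Hba-a1 and Hba-a2, and with it their separate values and the alpha to beta ratio, depends on that sequence.

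**Figure D5:**
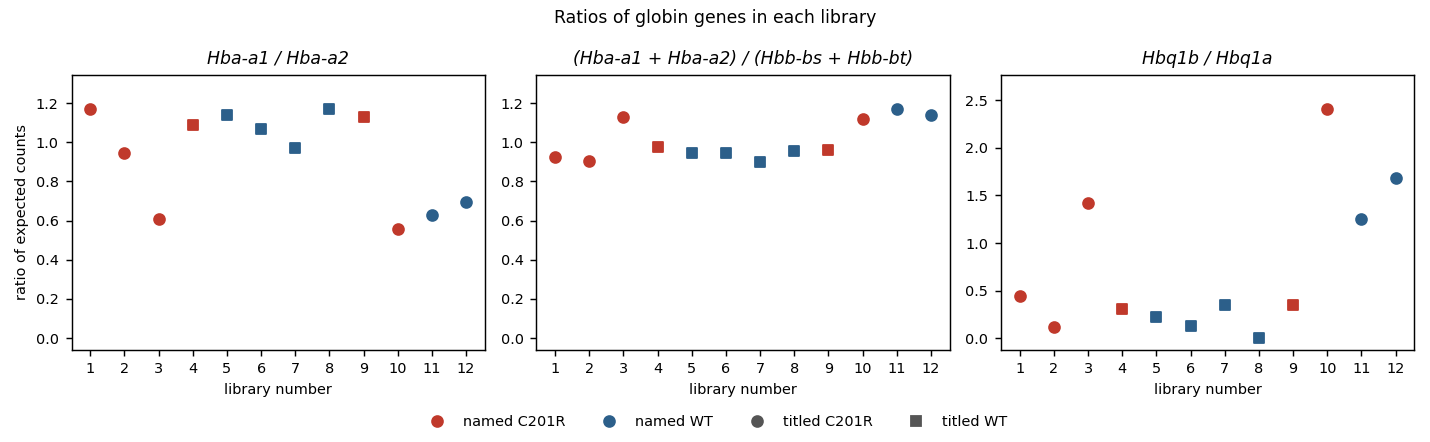
Ratio of expected counts in each library against library number, for Hba-a1 over Hba-a2, summed alpha over summed beta globin and Hbq1b over Hbq1a; colours give the library name and shapes the title. Libraries 3, 10, 11 and 12 lie apart from the other 8 in each panel.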

How the data were processed

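Spinal cord RNA was sequenced in paired reads of 75 bases after polyA selection, per the labels' protocols. Per the submitters' processing notes, the authors used Bowtie2 2.2.0 and RSEM 1.2.12; the genome build is not given in the sources used here. The authors deposited an expected count and TPM per gene. RSEM divides reads that fit several genes, so expected counts need not be whole; they were rounded. The authors' FPKM, per the file headers a value per length and library total, was not used.

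Genes kept by filterByExpr were scaled by TMM and tested in edgeR 4.0.16 (R 4.3.3) with titled sex as a term. SE is the log2 difference over the square root of F. Whether libraries stand for separate animals is not stated, and p-values then reflect only library-to-library spread, which may be technical. No pair of 66 agreed within sampling noise (chi-square per degree of freedom at least 6.5, genes with over 120 counts in the pair). Alternatives used DESeq2 1.42.0 and limma 3.58.1 (log2(TPM + 1), log2(TPM + 0.1), voom). The other 19 lists held 229 symbols, of which 228 were matched. Named from each list are up to 4 called genes of lowest p, or otherwise 2 of lowest p, and for likeness the 5 genes of highest r per member; some results under this rule are not reported here. Members and lists were chosen with earlier results of these data known. The fits were first tested on simulated data. Positions are from GENCODE M21, and Python 3.11.15 was used for joins, permutations and plots.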

Additional observations from a re-analysis of the deposited data

Results flagged for a closer look

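Hba-a2 in library 2, at 3214 TPM, stood apart from the other C201R libraries by title, of which the next highest was 1487 TPM, and likewise by library name. In the 4 WT libraries with agreeing labels, library 8 stood apart at the low end for Hba-a2 (445 TPM, next 1200 TPM), Hbb-bs (542 TPM, next 1415 TPM) and Hbb-bt (133 TPM, next 335 TPM). Each of these values had a gap to its nearest neighbour, as a share of the group's range, above Dixon's critical value for 95% (0.829 for 4 libraries, 0.625 for 6). In all 48 groups of a member and a label were examined and 5 met the criterion; chance alone gives about 1 in 20, and the groups and members share libraries. Summed skeletal muscle genes were at 149 TPM in library 2 and at 3281 TPM in library 8. Their part in the globin values was not tested.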

How the results depend on the processing

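The count of 0 members by title, by library name and in the 8 libraries with agreeing labels was the same under every alternative fitted (smallest adjusted p of a member 0.401, 0.188 and 0.0659). For library number, 4 members passed under 10 of the other settings. With paralogs summed, each globin pair was a single entry, so Hba-a2 was not tested apart from Hba-a1. The 3 entries that then passed were summed Hba-a1 and Hba-a2, summed Hbb-bs and Hbb-bt, and Alas2. The count was 0 with no titled sex term. It was also 0 without the libraries whose Xist went against the titled sex, where 1 of 18185 genes passed. With each library left out in turn, the count ranged from 0 to 5. The member added without library 11 was Slc4a1. Of 28 Pearson correlations, 13 passed without the 2 farthest libraries and 18 to 28 when leaving out each library in turn. The red cell lists were recounted on library number under the same settings, a choice made after seeing the data: haem synthesis genes also had 0 calls with limma on log2(TPM + 1) and log2(TPM + 0.1), with no filter on low counts and with no genotype term, where 0 erythroid development and 3 red cell membrane genes passed (1 higher, 2 lower), against 1.68% of all genes. Some differences that passed nowhere changed sign. By title these were Hba-a1 with log2(TPM + 1) (-0.11), log2(TPM + 0.1) (-0.11), voom with quality weights (-0.21), library number as a term (-0.0645) and without the 4 libraries of highest muscle transcripts (-0.20), Hbb-bs with voom (-0.0619) and without those 4 (-0.0829), and Hbb-bt with voom (-0.0253) and without those 4 (-0.0226). Without the libraries whose Xist went against the titled sex, all 8 were negative by title: Hba-a1 -1.002, Hba-a2 -0.11, Hbb-bs -0.77, Hbb-bt -0.78, Alas2 -0.59, Slc4a1 -0.54, S100a8 -0.64 and S100a9 -0.63. With the sex term, that contrast rested on library 10 alone against libraries 7 and 9, since every titled female left was C201R. Leaving out each library in turn gave ranges by title of -0.41 to 0.39 for Hba-a1, -0.30 to 0.48 for Hbb-bs, -0.23 to 0.55 for Hbb-bt, -0.21 to 0.66 for Alas2 and -0.0101 to 0.64 for S100a8, and of -0.0371 to 0.92 for Hba-a1 with agreeing labels. With library number as a term, the differences by library name were Hba-a1 -0.16, Hbb-bs -0.15, Hbb-bt -0.12, Alas2 -0.0789, S100a8 -0.13 and S100a9 -0.0502, and with agreeing labels Hba-a1 -0.39, Hbb-bs -0.25, Hbb-bt -0.20 and Alas2 -0.15. Slc4a1 stayed positive in both (0.60 and 0.67). Without the 4 libraries of highest muscle transcripts, an alternative chosen after seeing the data, S100a8 was -0.12 and S100a9 -0.13 by library name. The cause of these changes was not tested. No paired analysis was run, because the labels used here give no pairing of libraries. At 50 to 552 counts per library, Slc4a1 has the least depth of the members.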
